A study of Homo sapiens with 8 samples.

Results

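The 10 genes followed here encode proteins that move calcium ions against their gradient: the sodium-calcium exchangers SLC8A1, SLC8A2, SLC8A3 and SLC8B1, and the calcium-transporting ATPases ATP2A2, ATP2A3, ATP2B1, ATP2B4, ATP2C1 and ATP2C2. They were picked by name, with earlier results of these arrays known, from families in which SLC8A2 was already seen to differ between the groups. Every probe whose RefSeq accession maps to one of these symbols was taken, which gave 18 probes among the 42405 non-control probes on the array and 10 genes among the 28850 that were tested. Because the difference between the groups took part in the choice, the differences of these 10 genes are given as a description and carry no p-value.

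The data come from LNCaP, an androgen-responsive human cell line established from a lymph node metastasis of prostate cancer. The 4 cultures labelled siGATA2 had received 30 nM of an siRNA against GATA2, a transcription factor that binds the sequence GATA, and 4 labelled siControl had received 30 nM of a scrambled siRNA with the same reagent, and RNA was taken 72 h later. Total RNA of each was labelled with Cy3 and hybridised to its own one-colour Agilent array, so the level of a gene is the brightness of its probe, given below as log2 of the processed signal after quantile normalization. The question addressed was which transcripts differ after GATA2 silencing.

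Calcium is kept low in the cytosol by proteins that either push it out of the cell or pump it into stores. SLC8A1, SLC8A2 and SLC8A3 (NCX1 to NCX3) exchange sodium for calcium across the plasma membrane, SLC8B1 (NCLX) does so at the inner mitochondrial membrane, and the ATPases use ATP at the endoplasmic reticulum (SERCA pumps, ATP2A genes), at the plasma membrane (PMCA pumps, ATP2B genes) or at the Golgi (SPCA pumps, ATP2C genes, which also carry manganese). NCX2, the product of SLC8A2, is best known from neurons, whereas SERCA2b, PMCA1 and SPCA1 are found in most cells.

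The letters just upstream of 3 of these genes are shown because they are the stretch next to the start of transcription of the member with the largest difference (SLC8A2), of the pump with the next largest (ATP2B1), and of the exchanger with most GATA-type letters (SLC8A1). Each run is the 250 bases before an annotated RefSeq start on assembly GRCh38.p14, on the minus strand and written 5′ to 3′, at chr19:47471894-47472143 for SLC8A2, chr12:89709367-89709616 for ATP2B1 and chr2:40512436-40512685 for SLC8A1. Capitals mark the letters AGATAA, with the variant AGATAG, or TGATAA, with the variant TGATAG, on either strand, and the capitals of SLC8A1 do not overlap.
SLC8A2: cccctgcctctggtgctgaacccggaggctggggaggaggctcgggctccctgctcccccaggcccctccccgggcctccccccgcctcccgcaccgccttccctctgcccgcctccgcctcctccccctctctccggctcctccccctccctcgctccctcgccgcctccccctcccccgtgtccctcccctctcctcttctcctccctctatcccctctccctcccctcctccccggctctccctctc
ATP2B1: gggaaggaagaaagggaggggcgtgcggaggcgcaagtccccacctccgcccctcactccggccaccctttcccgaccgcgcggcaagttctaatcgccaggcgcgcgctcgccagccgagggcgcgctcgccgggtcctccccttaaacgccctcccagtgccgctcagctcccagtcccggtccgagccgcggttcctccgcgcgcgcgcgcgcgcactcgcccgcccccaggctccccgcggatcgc
SLC8A1: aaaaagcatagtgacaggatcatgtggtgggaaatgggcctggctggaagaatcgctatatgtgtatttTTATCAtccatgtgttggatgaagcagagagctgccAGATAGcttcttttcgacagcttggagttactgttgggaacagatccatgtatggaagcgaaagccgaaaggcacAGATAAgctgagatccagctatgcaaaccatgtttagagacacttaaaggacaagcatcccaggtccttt

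The SLC8A2 stretch is 75.6% G and C and holds 0 of these letters, as does the ATP2B1 stretch, which is 75.2% G and C. The SLC8A1 stretch is 44.8% G and C and holds 3. The windows of other SLC8A1 starts, at chr2:40430305-40430554 and chr2:40452091-40452340, hold 0. RefSeq entries were at hand for 8 of the 10 genes (15 windows, since some genes have several starts), and 5 of these 15 windows held at least 1 match, from SLC8A1, SLC8A3, ATP2A2 and, with 2 windows, ATP2C1. Of all 35116 windows of the same length, 22.3% held one. A match is only a string of letters in a short window, and nothing is drawn from its presence or absence.

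All 8 arrays lay on 1 slide and no spot was saturated. The number of probes well above background, a flag set by the scanner software from each spot and its local background, ran from 34353 to 36968 on the siGATA2 arrays and was 28485, 34796, 24241 and 33969 on siControl arrays 1 to 4. Arrays 1 and 3 of siControl also had the most variable negative controls, with an SD of 4.49 and 7.26 intensity units, where the remaining 6 arrays had 1.78 to 2.40, so a low reading is least secure there. The transcript targeted by the siRNA was not lower on the arrays labelled siGATA2: the single GATA2 probe read 12.03 ± 0.632 (SD, n = 4) against 11.35 ± 0.273 (SD, n = 4) on siControl arrays, a difference of 0.68 (SE 0.312, limma adjusted p = 0.154, exact two-sided permutation p = 0.143). The position of this probe relative to the siRNA site is not known here. GATA2 protein, which the paper reports as very much reduced by this siRNA in LNCaP cells, is not measured by the arrays. The groups are named by their labels throughout. The 9 luminal prostate markers of LNCaP cells were well above background on every array, with a mean log2 level of 14.27 to 14.86 on siGATA2 arrays and 15.14 to 15.19 on siControl arrays. Of 4 immune markers, 2 (PTPRC and CD14) were well above background on every array and the mean of the list was 7.22 to 7.45 and 6.82 to 7.18, of 3 endothelial markers 2 (VWF and CDH5) with 6.72 to 7.17 and 7.16 to 7.58, of 4 stromal markers 1 (COL1A1) with 5.56 to 5.80 and 5.81 to 6.03, and of 3 basal markers none with 3.26 to 3.96 and 3.46 to 4.52, in the same order of groups. KRT5 and LUM were below the filter on dim probes. All samples were cultures of the LNCaP line, and the marker readings were not taken to show other cell types. The part of these shifts in the results below was not tested. In a bulk sample fewer cells of a kind and less RNA per cell cannot be told apart.

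SLC8A2 differed most. Its single probe (A_33_P3319542, transcript NM_015063) read 9.83, 9.98, 8.72 and 8.74 on siGATA2 arrays 1 to 4 and 4.53, 4.58, 4.00 and 4.25 on siControl arrays 1 to 4. The lowest siGATA2 array was far above the highest siControl array, and siGATA2 arrays 1 and 2 were above arrays 3 and 4. The siGATA2 mean was higher by 4.98 on the log2 scale (SE 0.331), or 31.5-fold, which placed SLC8A2 at rank 5 of 28850 genes by size of increase, and also at rank 5 of the 17858 with a gene symbol.

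The size of that fold rests on a control reading close to background. Before normalization the processed signal of the SLC8A2 probe was 911, 1046, 434 and 425 intensity units on siGATA2 arrays 1 to 4 against 14.2, 27.9, 18.5 and 19.1 on siControl arrays 1 to 4. The probe was well above background on all 4 siGATA2 arrays and on siControl arrays 2 and 4, but not on siControl arrays 1 and 3. With those 2 arrays left out the difference was 4.90, and with normexp background correction, which adds an offset of 50 to every signal and by construction shrinks the fold of a dim probe, it was 2.85.

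**Figure D1:**
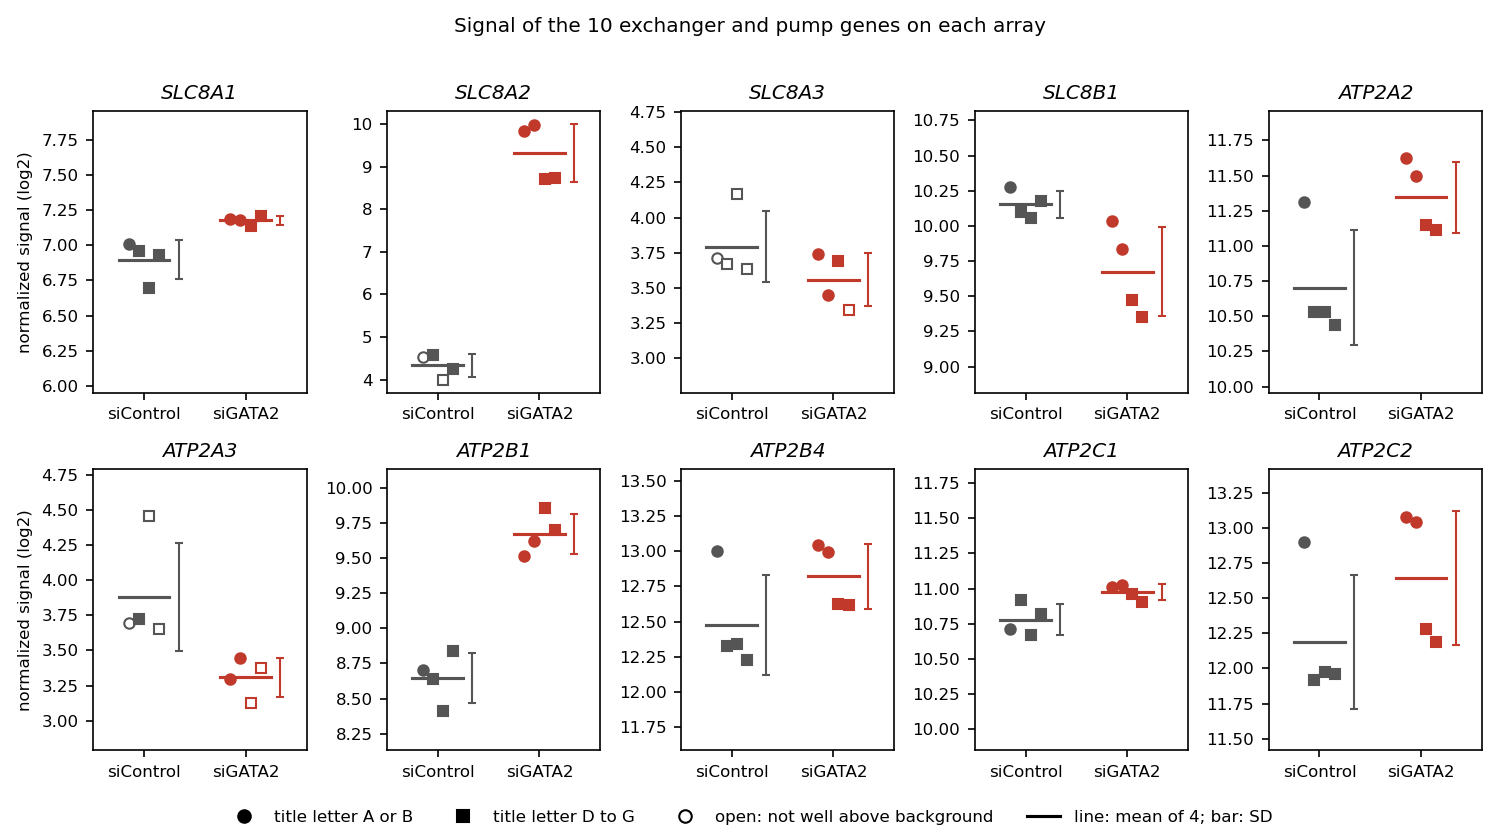
Log2 quantile-normalized processed signal of the brightest probe of each of the 10 genes (vertical axis, with its own range in each panel) on the 4 siGATA2 and the 4 siControl arrays (horizontal axis). Points are arrays, open where the probe was not well above background. Circles have the sample title letter A or B, and squares D to G. Horizontal lines are group means and vertical bars are the SD. SLC8A2 is near 4 on siControl arrays and near 9 on siGATA2 arrays. ATP2B1 has a mean of 8.65 on siControl arrays and of 9.67 on siGATA2 arrays.

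Among the other plasma membrane exchangers, SLC8A1, the cardiac type of the family, was measured by 3 probes of the same transcript (NM_021097). Its brightest probe read 7.18, 7.18, 7.14 and 7.21 on siGATA2 arrays and 7.01, 6.96, 6.70 and 6.93 on siControl arrays. The groups did not overlap, but they lay close together, with a difference of 0.28 (SE 0.103). A dimmer probe, well above background on 6 of 8 arrays, read 4.51, 4.37, 5.27 and 4.92 against 3.88, 4.35, 3.78 and 3.88, a difference of 0.79, while the dimmest probe was above background on 0 of 8 arrays and was removed by the filter.

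SLC8A3, known from muscle and brain, gave a reading near background everywhere. Its probe read 3.74, 3.45, 3.69 and 3.35 on siGATA2 arrays and 3.71, 3.67, 4.17 and 3.63 on siControl arrays, with the highest value on the noisy siControl array 3. It was well above background on 3 siGATA2 arrays and on no siControl array, so no fold is given (log2 difference -0.24, SE 0.160). Of the 3 plasma membrane exchangers, SLC8A2 and SLC8A1 were therefore measurable on every siGATA2 array, and SLC8A3 was not.

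The mitochondrial exchanger SLC8B1 had the opposite direction. Its probe read 10.03, 9.84, 9.48 and 9.35 on siGATA2 arrays and 10.28, 10.10, 10.06 and 10.18 on siControl arrays. Every siGATA2 array was below every siControl array, by 0.48 on average (log2 difference -0.48, SE 0.166). The groups nearly touched, with the highest siGATA2 array at 10.03 and the lowest siControl array at 10.06.

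Of the pumps of the plasma membrane, ATP2B1 (PMCA1, the housekeeping form) stood out. Its brightest probe (A_33_P3267186, NM_001682) read 9.51, 9.62, 9.85 and 9.70 on siGATA2 arrays and 8.70, 8.64, 8.41 and 8.84 on siControl arrays. The groups were clearly apart, with a difference of 1.02 (SE 0.129), or 2.03-fold, and both groups were tight. A second probe, for transcript NM_001001323, was dim (well above background on 6 of 8 arrays), had overlapping groups and differed by 0.32 (SE 0.241). The probes target different transcript records, so whether transcripts or probes differ cannot be told apart here.

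ATP2B4 (PMCA4) showed how much the reading depends on the probe. The brightest of its 3 probes read 13.04, 12.99, 12.63 and 12.62 on siGATA2 arrays and 13.00, 12.33, 12.34 and 12.23 on siControl arrays, so siControl array 1 sat among the siGATA2 arrays. That probe was higher by 0.35 (SE 0.203), whereas a second probe of the same transcript differed by -0.12 (SE 0.100) and the remaining probe, printed as 10 spots, by -0.14 (SE 0.120). All 3 were well above background on every array and the groups overlapped on each, so no direction is given for ATP2B4.

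At the endoplasmic reticulum, ATP2A2 (SERCA2) was bright on both of its probes. The brighter read 11.62, 11.49, 11.15 and 11.11 on siGATA2 arrays and 11.31, 10.53, 10.53 and 10.44 on siControl arrays, where array 1 again lay among the siGATA2 values. Its difference was 0.64 (SE 0.226). The other probe of the same transcript read 11.08, 10.99, 11.10 and 10.89 against 10.80, 10.62, 10.42 and 10.74, with no overlap and a difference of 0.37 (SE 0.120).

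ATP2A3 (SERCA3), the form of blood cells and some epithelia, was at the limit of detection. Its brighter probe read 3.30, 3.44, 3.12 and 3.37 on siGATA2 arrays and 3.69, 3.72, 4.45 and 3.65 on siControl arrays. It was well above background on 2 siGATA2 arrays and 1 siControl array, so the difference of -0.57 (SE 0.197) compares readings that mostly lie at background, and its groups did not overlap. The other ATP2A3 probe was removed by the filter.

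At the Golgi, ATP2C1 (SPCA1) and ATP2C2 (SPCA2, the form of secretory epithelia) were both well above background on all arrays with their brightest probe. ATP2C1 read 11.01, 11.03, 10.96 and 10.90 on siGATA2 arrays and 10.72, 10.92, 10.67 and 10.82 on siControl arrays, which nearly separated the groups, with a difference of 0.20 (SE 0.0989). A dimmer ATP2C1 probe for transcript NM_001199182 went the other way, by -0.85 (SE 0.403), so its direction also depends on the probe. ATP2C2 read 13.07, 13.04, 12.28 and 12.19 on siGATA2 arrays and 12.90, 11.91, 11.97 and 11.96 on siControl arrays, a difference of 0.46 (SE 0.305) smaller than the step between arrays within each group.

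**Figure D2:**
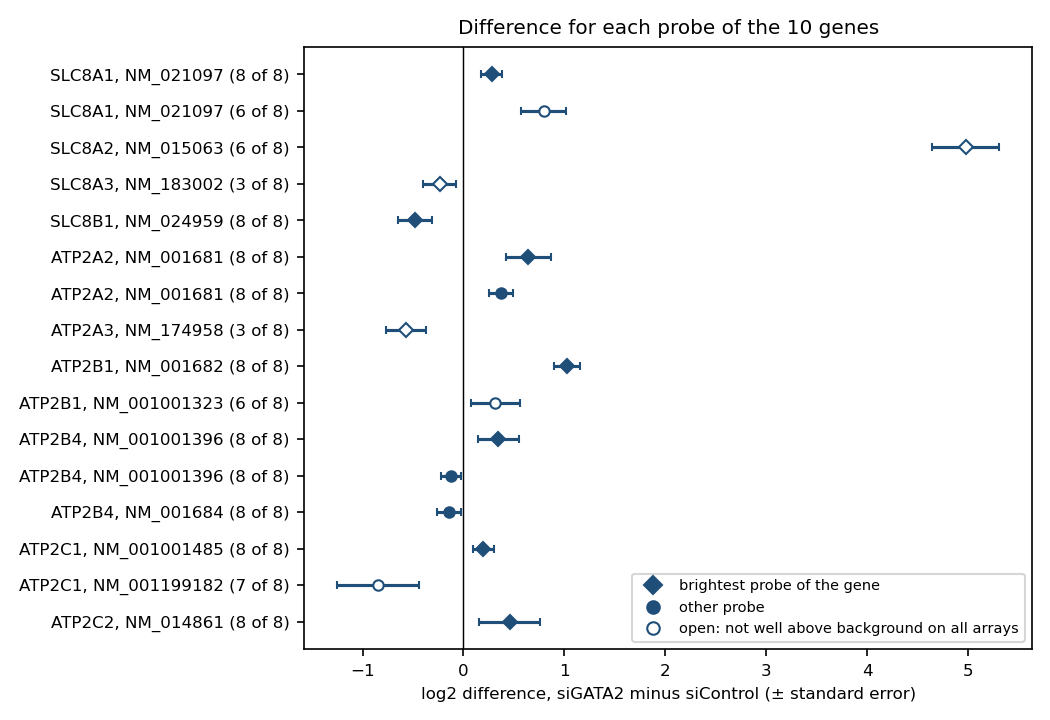
Log2 difference (siGATA2 mean minus siControl mean) of each probe of the 10 genes that passed the filter on dim probes, with bars of 1 standard error, on a horizontal axis in log2 units. Probes of ATP2B4 and of ATP2C1 lie on both sides of 0, those of SLC8A1, ATP2A2 and ATP2B1 on 1 side, and the SLC8A2 probe lies at 4.98.

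Taken by gene, 7 of the 10 means were higher and 3 lower on siGATA2 arrays, with a median difference of 0.31 against 0.09 over all 28850 genes. At a limma adjusted p under 0.05, 2 of the 10 met the threshold as higher (SLC8A2 and ATP2B1, both at least 2-fold) and 0 as lower, where 12.3% of all genes were called higher and 14.2% lower, and 4.52% and 7.13% were so with a fold of at least 2. The groups did not overlap in 5 of 10 genes, 3 of them higher (SLC8A1, SLC8A2 and ATP2B1) and 2 lower (SLC8B1 and ATP2A3), while over all genes 32.6% were apart, 16.1% as higher and 16.4% as lower. Since the comparison took part in choosing the genes, nothing is read from these counts. The 3 pump genes of the same families outside the list did not pass the test: ATP2A1 differed by 0.34 (limma adjusted p = 0.496), ATP2B2 by 0.19 (adjusted p = 0.768) and ATP2B3 by 0.06 (adjusted p = 0.710). Over their probes the differences ran from 0.34 to 0.47 for ATP2A1, 0.19 to 0.96 for ATP2B2 and -0.23 to 0.06 for ATP2B3. Both ATP2B2 probes were well above background on only 2 siControl arrays.

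A step between arrays of the same group ran through several members. The letter in the sample titles is A or B for siGATA2 arrays 1 and 2 and for siControl array 1, and D to G for the other 5 arrays, and the labels do not say what it stands for. Within siGATA2, arrays with letters A and B were above the others by 1.17 for SLC8A2, 0.43 for ATP2A2, 0.40 for ATP2B4 and 0.82 for ATP2C2, and siControl array 1 was above the other siControl arrays by 0.25, 0.82, 0.71 and 0.95 for the same genes. For SLC8B1 the step was 0.52 within siGATA2, larger than its difference between the groups, and 0.17 within siControl. The step was not particular to them: 38.7% of all genes differed by over 0.5 between the letters within siGATA2, and 37.7% within siControl.

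Compared within the letters, the SLC8A2 difference was 5.37 for A and B and 4.45 for D to G, and that of ATP2B1 was 0.87 and 1.15. For ATP2A2 it was 0.25 and 0.63, for ATP2B4 0.02 and 0.32, and for ATP2C2 0.16 and 0.28. SLC8B1 was lower within both, with log2 differences of -0.34 and -0.70. The letters A and B hold a single siControl array, which is also the one with the dimmest spike-in controls, so those values have no replicate on the control side. By row of the slide, with 3 siGATA2 arrays and 1 siControl array in the first and the reverse in the second, the difference was 5.26 and 4.37 for SLC8A2 and 0.83 and 1.11 for ATP2B1, and ATP2C2 changed sign between rows (0.83 and -0.07).

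SLC8A2 and ATP2B1 were higher on siGATA2 arrays under all 22 other processing settings, most of which use the same arrays. The SLC8A2 difference ran from 2.85 to 5.33 and that of ATP2B1 from 0.50 to 1.10, the lowest ATP2B1 value being that with the arrays scaled to spike-in controls, where the median of all genes moved from 0.09 to -0.43. That ATP2B1 value had an SE of 0.511, as large as itself, and did not meet the threshold. The mean spike-in level was 11.13 on siControl array 1, against 13.45 to 13.83 on the other arrays. As this scaling subtracts that level from each array, it raised siControl array 1 most, for every gene. Under that scaling SLC8A1, ATP2B4, ATP2C1 and ATP2C2 changed sign (-0.13, -0.31, -0.42 and -0.20), and ATP2C1 did so again when the probes of a gene were averaged (-0.32). Without siControl array 1 the differences of ATP2A2, ATP2B4 and ATP2C2 were 0.85, 0.52 and 0.69, and without siGATA2 array 1 that of SLC8B1 was -0.60.

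**Figure D3:**
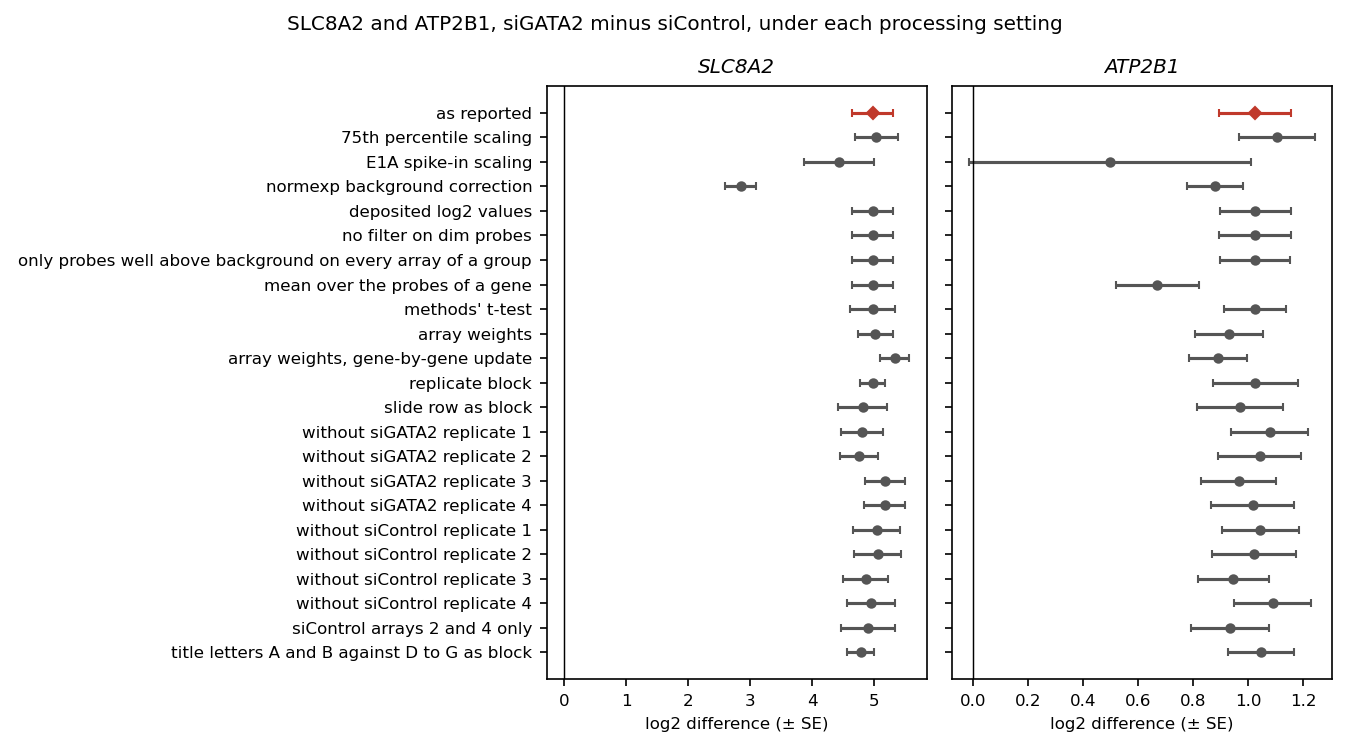
Log2 difference (siGATA2 minus siControl, horizontal axis, with bars of 1 standard error) of SLC8A2 and ATP2B1 as reported (diamond) and under each other processing setting (circles). SLC8A2 stays between 2.85 and 5.33, its lowest value being that with normexp background correction, and ATP2B1 stays between 0.50 and 1.10, its lowest being that with spike-in scaling (SE 0.511).

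The rest of the calcium-handling machinery was followed in 7 lists of 72 genes sorted by role, of which 68 could be tested. By limma over all genes, 16 were called higher and 7 lower, together 33.8% of those tested, where 26.5% of all genes were called, and their median difference was 0.14. With spike-in scaling 1 was called higher and 3 lower. The 3 lower were RYR2, RCN1 and RCN3, which were also called lower without it.

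Among partners of the pumps and exchangers, the share called was 11.1% of other pumps and exchangers, 37.5% of pump regulators and 9.09% of sodium pump genes, beside 26.5% of all genes. Of 9 other calcium pumps and potassium-dependent exchangers, 1 rose: SLC24A1, an exchanger first described in photoreceptors, read 9.45, 9.28, 9.52 and 9.38 on siGATA2 arrays against 8.53, 8.71, 8.93 and 8.62, a difference of 0.71 (SE 0.120, adjusted p = 0.00335). Of 8 tested regulators of the pumps, 3 rose and 0 fell. NPTN, a subunit of the PMCA pumps, rose by 0.93 (adjusted p = 0.000357) and S100A1, which binds SERCA, by 0.68 (adjusted p = 0.0105) from a control reading that was well above background on 2 of 4 arrays. Of the 11 genes of the sodium pump, whose gradient drives the exchangers, only ATP1B2, a beta subunit, was called, with a rise of 0.76 (adjusted p = 0.00188). All these rises missed the threshold with spike-in scaling, and that of S100A1 also did with the slide row as a block or when its probes were averaged.

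Release channels of the endoplasmic reticulum moved in both directions, with 3 of 9 higher and 2 lower. That is 55.6% called, beside 26.5% of all genes (12.3% higher and 14.2% lower). ITPR2, an inositol trisphosphate receptor, read 8.50, 8.48, 7.78 and 8.26 on siGATA2 arrays against 6.79, 6.47, 5.90 and 6.43 and rose by 1.85 (SE 0.233, adjusted p = 0.000778). RYR2, the ryanodine receptor of the heart, read 5.48, 5.28, 4.96 and 4.73 against 7.11, 6.96, 6.68 and 6.86 and fell by 1.79 (SE 0.186, adjusted p = 0.000294). PKD2, a cation channel, rose by 0.77 (adjusted p = 0.00154), TMBIM6, a calcium leak protein, rose by 0.35 (adjusted p = 0.0265), and ITPR3 fell by 0.69 (adjusted p = 0.0339). Of these, TMBIM6 lost its call on leaving out any of 6 arrays (siGATA2 1, 2 or 3, or siControl 2, 3 or 4, with differences of 0.32 to 0.34) and with the replicate number or slide row as a block, was not called at 0.14 with 75th percentile scaling and was at -0.46 with spike-in scaling. ITPR3 lost its call on leaving out any of 5 arrays (siGATA2 2, 3 or 4, or siControl 3 or 4, with differences of -0.75 to -0.61), with the slide row as a block, by the methods' t-test and, at -0.50, with siControl arrays 2 and 4 only.

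**Figure D4:**
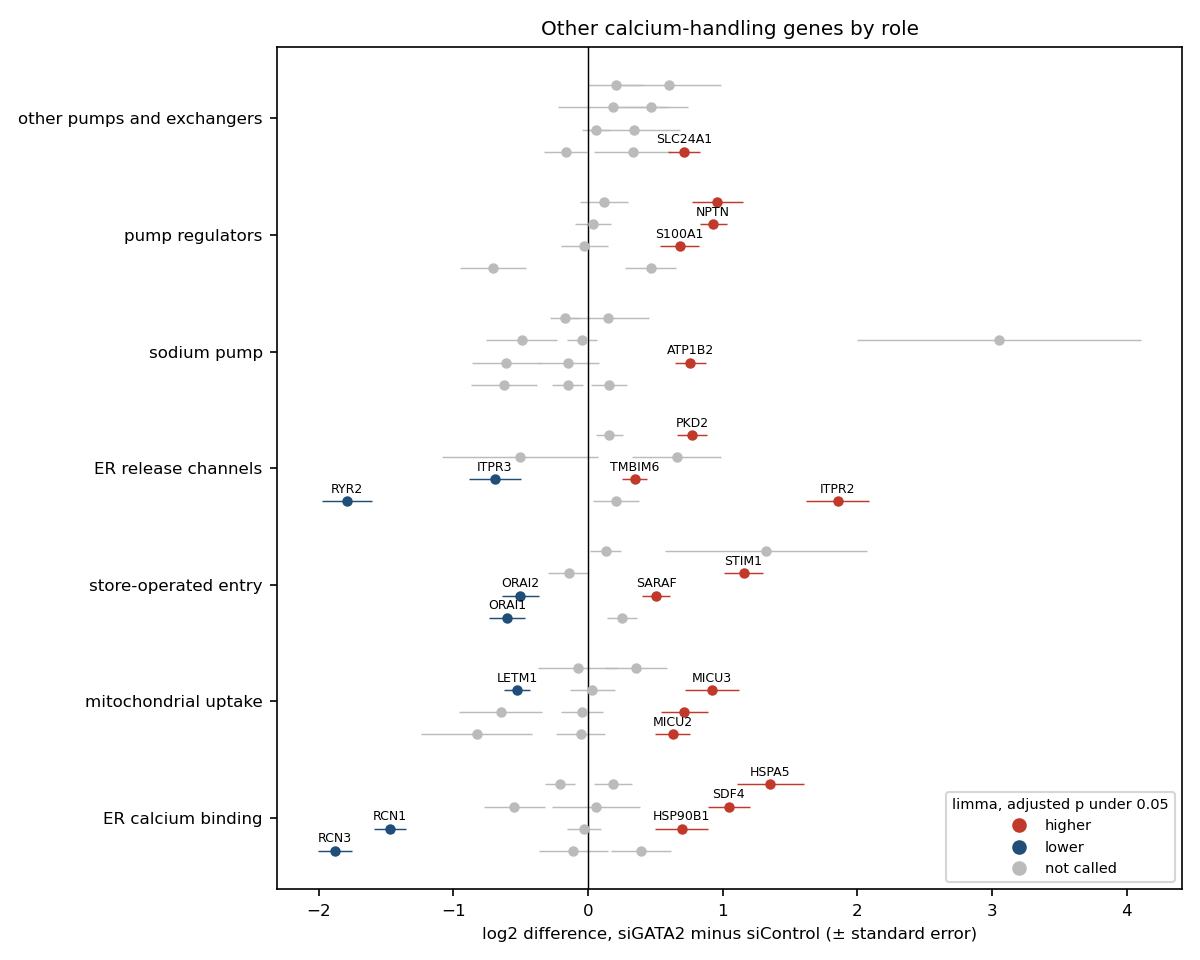
Log2 difference (siGATA2 minus siControl, horizontal axis, with bars of 1 standard error) of the 68 tested calcium-handling genes in 7 lists (vertical axis). Red and blue points are genes called higher and lower at a limma adjusted p under 0.05 and grey points were not called, and called points without a label are not reported by name; called genes lie on both sides of 0 in 4 of the 7 lists and on the higher side alone in the other 3.

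Store-operated entry, by which an emptied store opens channels of the plasma membrane, had 2 of 8 genes higher and 2 lower (50% called, beside 26.5% of all genes). STIM1, the sensor of the store, read 12.58, 12.61, 12.41 and 12.36 against 10.97, 11.47, 11.43 and 11.48 and rose by 1.16 (SE 0.146, adjusted p = 0.000788). SARAF, which turns this entry off, rose by 0.51 (adjusted p = 0.00871), but was not called at 0.37 with 75th percentile scaling and was at -0.23 with spike-in scaling. The channel subunits ORAI1 and ORAI2 fell by 0.60 (adjusted p = 0.0128) and 0.50 (adjusted p = 0.0285), and ORAI2 lost its call on leaving out any array but siControl 1, with differences of -0.52 to -0.45, and with the slide row as a block (-0.54).

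Among 11 genes of mitochondrial calcium uptake, 3 were called higher and 1 lower (36.4%, beside 26.5% of all genes). The regulators MICU2 and MICU3 rose by 0.63 (adjusted p = 0.00972) and 0.92 (adjusted p = 0.0111), and LETM1, an ion carrier, fell by 0.53 (adjusted p = 0.00569). MICU2 was not called at 0.54 with 75th percentile scaling or at 0.61 with siControl arrays 2 and 4 only, and was at -0.07 with spike-in scaling. LETM1 was not called when its probes were averaged (-0.51). MCU, the pore itself, differed by 0.36 and was not called. Among 12 calcium-binding proteins of the secretory pathway, 3 were higher and 2 lower (41.7% called, beside 26.5% of all genes). HSPA5 (BiP), a chaperone that binds much of the calcium of the store, rose by 1.35 (SE 0.250, adjusted p = 0.00527) and SDF4 (Cab45), of the Golgi, by 1.05 (adjusted p = 0.00192), while the reticulocalbin RCN3 fell by 1.88 (adjusted p = 4.21e-05) and its relative RCN1 fell by 1.47 (adjusted p = 9.34e-05). HSP90B1 rose by 0.69 (adjusted p = 0.0322), was at -0.17 with spike-in scaling, was not called at 0.43 with 75th percentile scaling, by the methods' t-test or with the slide row as a block, and lost its call on leaving out any of 5 arrays (siGATA2 1 or 2, or siControl 2, 3 or 4, with differences of 0.60 to 0.65).

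Genes whose readings over the 8 arrays ran most like those of SLC8A2 were sought among 16557 genes with a symbol, by the root mean square difference of log2 values after each gene was centred on its own mean. The 5 closest were CCN2 (0.468), KLK7 (0.488), EPS8L1 (0.509), CAPN12 (0.685) and CCN1 (0.689). CCN2, a matricellular protein, read 8.87, 9.37, 7.64 and 7.90 on siGATA2 arrays and 3.11, 4.19, 3.91 and 4.28 on siControl arrays, with the same higher pair of siGATA2 arrays as SLC8A2. CAPN12 and CCN1 had that pair too, at 10.85 and 10.92 against 8.83 and 8.78 for CAPN12 and 15.47 and 15.67 against 14.34 and 14.37 for CCN1. The pair was also higher, by less, in EPS8L1 (12.71 and 12.83 against 12.15 and 12.18) and KLK7 (7.38 and 7.41 against 7.12 and 6.98). As these genes were picked for likeness to SLC8A2, nothing is read from the shared pair. KLK7 was on no siControl array well above background, and was there at least 9.59-fold lower than on siGATA2 arrays. Of the protein-coding genes next to SLC8A2 on its chromosome, 2 on each side, KPTN rose by 1.28 (adjusted p = 0.00162), while DHX34 (-0.58, adjusted p = 0.288), MEIS3 (0.07, adjusted p = 0.910) and NAPA (0.31, adjusted p = 0.321) did not pass the limma test.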

How the data were processed

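LNCaP cultures (4 siGATA2 and 4 siControl, labelled as biological replicates of each group) were grouped by their labels. For each spot the authors deposited an intensity written by Agilent Feature Extraction 11.0.1.1 per the labels, in which the processed signal is background-subtracted, together with other columns such as quality flags, and a matrix of log2 values (used as an alternative). The array design in the file headers differs from the one in the methods.

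Outlier spots were left out, the deposited intensity was averaged over the spots of a probe on the log2 scale, and arrays were quantile-normalized with limma 3.58.1 in R 4.3.3. RefSeq accessions were given for 27902 probes and 26364 of them matched a symbol (GRCh38.p14 table, used for names and for the upstream windows). Removal of unannotated probes (1914) and of those whose mean log2 value was under 3 left 35514. The brightest probe stood for its gene. All 28850 genes were fitted with lmFit and eBayes, with Benjamini-Hochberg adjustment. The methods named a t-test. P-values measure only the spread between these 4 arrays per group, whose number limits the precision, as arrays have no read depth. The limma step was tested on simulated data with independent normal noise. These data lacked the step between arrays of the same group, so that test does not cover it.

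The members and lists were chosen with earlier results of these data known. Named are GATA2, the 10 members, ATP2A1, ATP2B2, ATP2B3, up to 3 rises and 3 falls per list among genes with adjusted p under 0.05 and a probe well above background on every array of a group, and the 5 genes most like SLC8A2. MCU and the neighbours of SLC8A2 were added after their values were seen. Alternatives were scaling (75th percentile, or 7 E1A spike-in probes), normexp with an offset of 50 on the median signal (the files hold no mean signal), the deposited log2 values, other probe filters, the methods' t-test, array weights, blocks and leaving out arrays. No block by slide was possible with 1 slide. Protein and probe sequences were not used here, and 3 related genes are not reported by name.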

Additional observations from a re-analysis of the deposited data

Results flagged for a closer look

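The 16 member probes that passed the filter gave 32 groups of 4 arrays. In 5 of these groups, 1 array stood far from the other 3 by Dixon's test. Chance alone sets about 1 in 20 groups apart. The groups were read on the same arrays and are not independent, so the count of 5 cannot be weighed against that rate. The share of all genes set apart by this test is not given. Within siControl, 37.7% of all genes differed by over 0.5 between array 1 and the others. All 5 readings set apart were on siControl arrays. On siControl array 1, ATP2A2 read 11.31 against 10.44 to 10.53 on the other siControl arrays (gap 0.896 of the range), the brightest ATP2B4 probe read 13.00 against 12.23 to 12.34 (gap 0.856), and ATP2C2 read 12.90 against 11.91 to 11.97 (gap 0.941). On siControl array 3, SLC8A3 read 4.17 against 3.63 to 3.71 (gap 0.851) and ATP2A3 read 4.455 against 3.65 to 3.72 (gap 0.911). Beside these, siControl array 1 had a mean E1A spike-in level of 11.13 on the log2 scale against 13.45 to 13.83 on the other 7 arrays, and siControl array 3 had the fewest probes well above background. The part of these array properties in the 5 readings was not tested.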

How the results depend on the processing

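Scaling to E1A spike-ins gave SLC8A2 4.43, 1 member meeting the threshold as higher, 1 related gene higher and 3 lower, 138 genes higher and 1901 lower (93.2% of calls lower, against 53.5% as reported), and reversed TMBIM6 (-0.46), SARAF (-0.23), MICU2 (-0.067) and HSP90B1 (-0.17), none of them called there. That scaling raised siControl array 1 most, whose mean spike-in level was 11.13 against 13.45 to 13.83 on the other arrays. Normexp gave SLC8A2 2.85 and 1 member lower, beside 3853 of all genes higher and 4312 lower. Averaging the probes of a gene gave 4 members higher, beside 3543 of all genes higher and 4042 lower. A fold of at least 2 left 4 related genes higher and 3 lower, and 1304 genes higher and 2056 lower. Slide row as a block gave 2184 genes higher.

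Array weights (limma's default, which stopped before its convergence tolerance) gave GATA2 0.79 (adjusted p = 0.0321), and 6 members higher and 1 lower. They also gave 11 related genes lower, beside 5794 of all genes higher and 5648 lower. The gene-by-gene update, tried only after those results were seen, gave GATA2 1.10 (adjusted p = 0.00195), 6 members higher, 26 related genes higher and 15 lower, and 8037 genes higher and 7531 lower. The methods weighted the arrays differently. A block by title letter (A or B, or D to G), also added after the data were seen, gave GATA2 0.47 (limma adjusted p = 0.0261). With it 5 members were higher and 1 lower, beside 7198 of all genes higher and 5757 lower. Over all alternatives the limma adjusted p of GATA2 ran from 0.00195 to 0.986.

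Leaving out 1 array at a time gave SLC8A2 4.75 to 5.17, GATA2 0.49 to 0.89, 2 to 4 members higher (4 without siControl array 1, by ATP2A2 and ATP2B4), 0 to 1 lower (SLC8B1, without siGATA2 array 1), 14 to 18 related genes higher and 5 to 10 lower, and 2591 to 4001 genes higher and 3239 to 4465 lower. The deviations of same-numbered arrays correlated at 0.54, -0.31, 0.17 and 0.22. As they did not deviate together in every pair, the replicate numbers were not taken to pair the samples. With the replicate block SLC8A2 stayed at 4.98, 3 members were higher, 16 related genes were higher and 7 lower, 3376 genes were higher and 3708 lower, and TMBIM6 missed the threshold (adjusted p = 0.0882). Signal over background limits SLC8A3, ATP2A3 and the siControl level of SLC8A2.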
